A study of Mus musculus with 3 samples.

Results

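The azurophil granule genes *Elane*, *Mpo*, *Prtn3*, *Ctsg*, and *Ms4a3* were followed through cells of the bone marrow, the blood, and the injured tendon of mice. They were taken by gene symbol, and the 5 genes are 5 of the 27998 genes listed in each library. The samples came from 10-week-old male C57BL/6J mice on day 3 after burn/tenotomy, in which a burn to the back is combined with a full cut of the Achilles tendon and ectopic bone, termed heterotopic ossification, forms later. There was 1 library for each of the 3 sites, all 3 from injured mice, so no library of uninjured mice was compared here, and neither the labels nor the methods say how many mice stand behind a library. Cells were not sorted. Bone marrow was flushed, blood was passed over a ficoll gradient that keeps mononucleated cells, and red cells were lysed in both. The tendon injury site alone was digested with collagenases and dispase at 37 degrees. Site, preparation, and library therefore cannot be told apart. With 1 library per site there is no replicate check, no test was run, and every difference given here compares libraries or the cells within them.

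Azurophil, or primary, granules are the first granules that a developing neutrophil makes, at the promyelocyte step, before the specific and gelatinase granules. Their proteins are stored and carried through later maturation, while the genes that encode them are switched off early, so that the transcripts are known as marks of granulocyte and monocyte progenitors rather than of the circulating neutrophil. *Elane* encodes neutrophil elastase, *Prtn3* encodes proteinase 3, and *Ctsg* encodes cathepsin G, all serine proteases of the granule. *Mpo* encodes myeloperoxidase, the heme enzyme that makes hypochlorous acid. *Ms4a3* encodes a membrane protein with several membrane-spanning segments that is used as a mark of granulocyte and monocyte progenitors.

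The genes lie at 4 places in the genome, all annotated as protein coding in GENCODE M21 on GRCm38. *Prtn3* (ENSMUSG00000057729, chr10:79874476-79883174, plus strand) and *Elane* (ENSMUSG00000020125, chr10:79886247-79888215, plus strand) are direct neighbors with 3073 bases between them. *Mpo* (ENSMUSG00000009350) is at chr11:87793581-87804413 on the plus strand. *Ctsg* (ENSMUSG00000040314) is at chr14:56099881-56102574 on the minus strand, and *Ms4a3* (ENSMUSG00000024681) is at chr19:11629496-11640851 on the minus strand.

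Because the 5 transcripts were high in the same bone marrow cells, the promoters were read for short motifs of factors known in granulocyte progenitors. All 5 genes matched an entry of the RefSeq promoter windows on GRCm38.p6, each of which runs from 250 bases before to 50 bases after the start used there. That start can differ from the GENCODE start, and the *Prtn3* stretch given below lies inside the GENCODE span of the gene. In these windows the letters GGAAGT, a core bound by ETS factors, were found on either strand for 5 of 5 members and in 23.8% of all 32851 windows. The longer form GAGGAAGT, which holds GGAAGT and resembles sites of the ETS factor PU.1, was found for *Elane*, *Mpo*, and *Prtn3* and in 3.2% of all windows. AACGG, a MYB core, was found for *Elane* and *Prtn3* and in 17.4% of windows, and TTNNGNAA, a form bound by C/EBP factors, was found for *Ms4a3* alone and in 40.7% of windows. The motifs were picked with the sequences in view, and a match is a description of the letters. The stretch around GGAAGT of each member is given on its coding strand, 5′ to 3′, with that motif in capitals, and covers chr10:79886184-79886246 for *Elane*, chr11:87793534-87793580 for *Mpo*, chr10:79879529-79879613 for *Prtn3*, chr14:56102729-56102824 for *Ctsg*, and chr19:11640856-11640951 for *Ms4a3*.
Elane: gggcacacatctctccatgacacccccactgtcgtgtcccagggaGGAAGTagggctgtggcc
Mpo: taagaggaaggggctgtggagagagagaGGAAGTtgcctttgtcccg
Prtn3: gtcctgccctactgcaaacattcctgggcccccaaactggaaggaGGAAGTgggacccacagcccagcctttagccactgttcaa
Ctsg: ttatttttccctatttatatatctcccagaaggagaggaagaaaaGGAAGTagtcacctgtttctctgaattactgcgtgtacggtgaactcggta
Ms4a3: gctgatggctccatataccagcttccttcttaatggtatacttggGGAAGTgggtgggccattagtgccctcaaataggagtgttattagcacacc

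The deposited values are unique molecular identifier (UMI) counts, in which each UMI stands for 1 captured transcript. After filtering, 1813 bone marrow, 2146 blood, and 4780 tendon cells were used, with medians of 22893, 8360.5, and 12177.5 UMIs per cell. A level is the number of UMIs of a gene among 1000000 UMIs of a group of cells (CPM), with its exact Poisson 95% interval. For shares of cells the 95% interval is the Clopper-Pearson interval, and none of these intervals covers more than counting error. The libraries count transcript ends, so levels of different genes are set side by side without a correction for length. Each library was clustered on its own with the 5 members and their companion genes left out of the clustering features, and clusters were named from fixed markers that hold none of the 5. Of the cell barcodes, 2 were shared between bone marrow and blood, 1 between bone marrow and tendon, and 6 between blood and tendon.

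In bone marrow, 2 clusters with 185 cells were named myeloid progenitor-like. Cluster 5 (108 cells, median 52579 UMIs) was led by the metabolic genes *Srm* and *Phgdh* together with the progenitor markers *Cd34* and *Sox4*. It held 89.8 CPM of *Camp*, a gene of the later specific granules. Cluster 14 (77 cells, median 38037 UMIs) was led by *Rgcc*, *Nkg7*, and *Vcam1* and rested on 3 progenitor markers, the fewest that a name required. It already held 20225 CPM of *Camp*, so that the name covers cells of unequal maturity. *Cd34* was at 4.45 CPM and *Sox4* at 12.7 CPM in cluster 14, against 76.0 and 105 CPM in cluster 5. Cluster 5 also held the monocyte/macrophage markers *Ccr2* (125 CPM) and *Csf1r* (32.4 CPM). In cluster 14 these were at 1.91 and 1.59 CPM. Whether the 2 clusters are steps of 1 lineage was not tested. Cluster 0 (120 cells), led by *Ccne2*, *Fcnb*, and histone genes of DNA replication, had only 2 progenitor markers and stayed unnamed, with 28190 CPM of *Camp*. The further steps were cycling pre-neutrophil-like cells (cluster 9, 154 cells), immature neutrophil-like cells (334 cells, led by *Ltf* and *Ngp*), and mature neutrophil-like cells (278 cells, led by *Retnlg*, *Il1b*, and *Clec4d*). Immature and mature cells, with a further 195 cells that were given no stage, made up the 807 neutrophil-like cells. Scrublet doublet scores of the cells kept had medians of 0.0523 in cluster 5 and 0.0459 in cluster 14, against 0.0116 to 0.0875 over all bone marrow clusters, and whether doublets remained in these deep cells was not tested. No cluster of blood or of the tendon injury site was named progenitor-like or pre-neutrophil-like, and the tendon library held 684 mesenchymal-like and 292 endothelial-like cells.

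Among the classes as clustered here, the progenitor-like cells held most of the azurophil granule transcripts. The 5 genes together made up 24442 CPM of these cells, which is 2.44% of all their UMIs, and the 185 cells, 10.2% of the library, held 61.6% of its 346376 UMIs of the 5 genes. Cluster 5 held 36.7% of these UMIs and cluster 14, already rich in *Camp*, held 24.9%, so that the majority rests on the name of cluster 14. Unnamed cluster 0 held a further 25.5%, monocyte/macrophage-like cells 8.37%, and pre-neutrophil-like cells 3.74%. The neutrophil-like class, with 44.5% of the cells, held 0.252%. By member, the progenitor-like share was highest for *Ctsg* at 73.9% and for *Mpo* at 72.1%, and it was 57.0% for *Elane*, 58.6% for *Prtn3*, and 59.8% for *Ms4a3*. The share of 61.6% depended on the naming of cells, and was 36.7% at clustering resolution 0.5 and 1.51% with cells named 1 by 1. No progenitor-like class was named when the 3 libraries were clustered together.

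Among the proteases, *Prtn3* was at 9648 CPM (9582 to 9713) in progenitor-like cells. *Elane* followed at 6835 CPM (6780 to 6890), and *Ctsg* was at 4009 CPM (3967 to 4051). *Mpo* was at 2751 CPM (2717 to 2786) and *Ms4a3* at 1199 CPM (1176 to 1222). The order was therefore *Prtn3*, *Elane*, *Ctsg*, *Mpo*, and *Ms4a3*, and no neighbors in it had overlapping counting intervals.

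**Figure D1:**
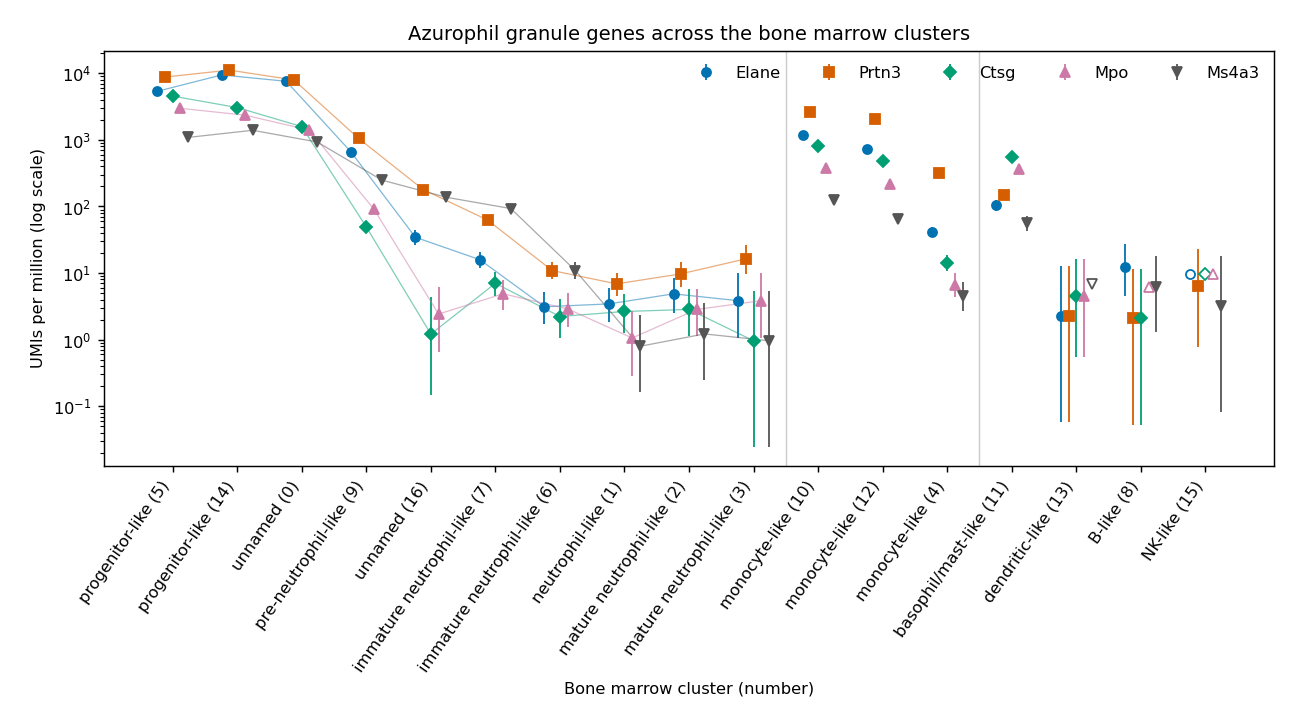
Level of each of the 5 azurophil granule genes in the 17 bone marrow clusters (CPM, log axis, filled points with exact Poisson 95% intervals, open points at the floor of 3 counts where no UMI was found, lines joining the clusters from progenitor-like to mature neutrophil-like). *Elane* is at 9453 CPM in cluster 14, 7585 in unnamed cluster 0, 664 in pre-neutrophil-like cluster 9, and 15.9 in immature neutrophil-like cluster 7, and the points of *Ms4a3* cross those of the other genes on the way.

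Compared with neutrophil-like cells of the same library, all 5 members were more than 4-fold higher in progenitor-like cells. The background is large here, because 38.8% of the 10536 genes with enough UMIs (at least 20 in both classes together) were also at least 4-fold higher and the median log2 ratio of all genes was 1.33. *Ctsg* was at 4009 against 3.39 CPM, a log2 ratio of progenitor-like to neutrophil-like cells of 10.21 (95% interval 9.81 to 10.64). *Elane* was at 6835 against 6.31 CPM, a log2 ratio of 10.08 (9.79 to 10.39). For *Mpo*, at 2.92 CPM in neutrophil-like cells, the log2 ratio was 9.88 (9.45 to 10.34), and the intervals of these 3 genes overlapped. *Prtn3*, at 21.3 CPM in neutrophil-like cells, had a lower log2 ratio of 8.82 (8.66 to 8.99). *Ms4a3* stood apart with a log2 ratio of 5.64 (5.49 to 5.80), as neutrophil-like cells still held 24.0 CPM of it, close to *Prtn3* and above the other 3. The interval of *Ms4a3* did not meet that of any other member.

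The share of cells with a UMI gave the same order of classes after the depth was made equal. For this, 1000 UMIs were drawn at random from each cell (thinning), since progenitor-like cells were deeper (median 44059 UMIs) than neutrophil-like cells (median 18071), and 5 neutrophil-like cells with fewer UMIs were left out. *Prtn3* was found in 96.8% of progenitor-like cells without and 87.6% with thinning, against 18.6% and 1.87% of neutrophil-like cells. *Elane* was found in 87.6% and 75.1% of progenitor-like cells, against 7.81% and 0.249%. *Mpo* was found in 90.3% and 71.4%, against 4.83% and 0.249%.
For *Ctsg* the progenitor-like shares were 89.7% without and 70.3% with thinning, against 3.97% and 0.125% of neutrophil-like cells. *Ms4a3* was found in 88.6% and 57.3%, against 14.4% and 1.37%. B-like cells, which should lack all 5 transcripts, give the level of free RNA in the droplets. Of the 56 B-like cells, with a median depth of 5193.5 UMIs, 10.7% held an *Elane* UMI without thinning and 1.79% held *Prtn3*, *Ctsg*, or *Ms4a3*, each, while none held *Mpo*. After thinning, 0 of 56 B-like cells held a UMI of any of the 5 genes taken singly, which allows a share of up to 5.36%.

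The sum of the 5 genes in mature neutrophil-like cells was near the B-like level in CPM. It was 22.8 CPM (18.1 to 28.4), and that of B-like cells was 22.9 CPM (11.4 to 41.0). Dendritic-like cells of bone marrow (median 11556.5 UMIs) had a lower sum of 13.5 CPM (4.97 to 29.5, 6 UMIs). NK-like cells (median 10259 UMIs) were at 9.59 CPM (1.98 to 28.0, 3 UMIs). The intervals of both classes overlapped that of mature neutrophil-like cells. For single members the B-like UMIs were too few to tell the members apart. *Prtn3* was at 11.7 CPM (8.39 to 15.9, 41 UMIs) in mature neutrophil-like against 2.08 CPM (0.0527 to 11.6, 1 UMI) in B-like cells, with intervals that overlapped. *Ms4a3* was at 1.14 CPM (0.311 to 2.92, 4 UMIs) against 6.24 CPM (1.29 to 18.2, 3 UMIs in 1 cell), so that it was not detectable above the B-like level at this depth. B-like cells (median 5193.5 UMIs) were shallower than the 2 mature clusters (medians 13977 and 10005 UMIs). The part of depth in these CPM was not tested, so the B-like level is a rough measure of free RNA. The part of free RNA in the level of mature neutrophil-like cells was not tested.

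The levels were then followed step by step. Between progenitor-like clusters 5 and 14 the proteases did not differ in the same direction. *Elane* was higher in cluster 14, at 9453 against 5359 CPM (log2 ratio 0.82, 0.80 to 0.84). *Prtn3* differed less, at 11163 against 8793 CPM (0.34, 0.32 to 0.36), and *Ms4a3* was at 1394 against 1089 CPM (0.36, 0.30 to 0.41). *Ctsg* and *Mpo* were lower in cluster 14, with log2 ratios of −0.57 (−0.60 to −0.54) and −0.34 (−0.38 to −0.30). The median log2 ratio of all genes in this comparison was −0.50, 0 of 5 members were past 4-fold in either direction, and 2.0% of all genes were at least 4-fold higher and 8.81% at least 4-fold lower. *Ctsg* was thus the member whose ratio lay closest to that median, while *Elane* lay farthest above it.

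In unnamed cluster 0 all 5 members were below their level in cluster 14, with log2 ratios from −0.32 for *Elane* to −0.95 for *Ctsg*. *Mpo* was at −0.75 and *Ms4a3* at −0.59, and the median of all genes was −0.21. None of the 5 was past 4-fold here, where 0.749% of all genes were at least 4-fold higher and 0.62% at least 4-fold lower.

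Between cluster 0 and pre-neutrophil-like cells the levels differed more, and most for *Ctsg*. *Ctsg* was lower by a factor of 32.1, at 49.3 against 1583 CPM, and *Mpo* by a factor of 15.5, at 90.5 against 1399 CPM. *Elane* was lower by a factor of 11.4, at 664 against 7585 CPM, and *Prtn3* by a factor of 7.53, at 1054 against 7939 CPM. Both were past 4-fold, as were *Ctsg* and *Mpo*, while 2.71% of all genes were at least 4-fold lower. *Ms4a3* did not reach 4-fold, at 249 against 928 CPM (factor 3.73). Set against the whole progenitor-like class, pre-neutrophil-like cells were past 4-fold lower for 5 of 5 members, where 20.3% of all genes were, with log2 ratios of progenitor-like to pre-neutrophil-like cells from 2.27 for *Ms4a3* to 6.35 for *Ctsg*. With cells named 1 by 1 this ratio was reversed for 4 of the 5 members, at −2.74 for *Elane*, −1.61 for *Prtn3*, −0.69 for *Ctsg*, and −1.79 for *Ms4a3*, and it was 0.089 for *Mpo*.

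Immature neutrophil-like cells were lower again. The log2 ratio of pre-neutrophil-like to immature cells was 6.29 (5.94 to 6.66) for *Elane*, 5.01 (4.83 to 5.20) for *Prtn3*, 3.54 (3.02 to 4.10) for *Ctsg*, and 2.45 (2.29 to 2.62) for *Ms4a3*. *Mpo* was at 90.5 against 3.73 CPM, a factor of 24.3. All 5 were past 4-fold, as were 11.9% of all genes. Against the whole neutrophil-like class the 5 members were also past 4-fold higher in pre-neutrophil-like cells, with log2 ratios from 3.38 for *Ms4a3* to 6.72 for *Elane*, where 14.5% of all genes were at least 4-fold higher and 5.4% lower. *Ms4a3* was then the most abundant member, at 45.5 CPM in immature cells, where *Elane*, *Mpo*, and *Ctsg* were between 3.73 and 8.48 CPM and *Prtn3* was at 32.7 CPM.

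From immature to mature neutrophil-like cells only *Ms4a3* was past 4-fold, where 8.59% of all genes were. It was at 45.5 CPM in immature and 1.14 CPM in mature cells, a log2 ratio of 5.32 (3.95 to 7.20) from 354 and 4 UMIs. None of the 5 was at least 4-fold lower in immature cells, where 4.92% of all genes were. *Prtn3* was at 32.7 against 11.7 CPM (log2 ratio 1.48), and for *Elane* the log2 ratio was 0.89 (0.09 to 1.78). The intervals of *Mpo* (0.25, −0.80 to 1.40) and *Ctsg* (0.89, −0.25 to 2.22) held 0. Within the immature cells *Ms4a3* was uneven, at 93.0 CPM in cluster 7 and 10.9 CPM in cluster 6.

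The make-up of the azurophil granule transcripts differed between these steps. In progenitor-like cells *Prtn3* gave 39.5% of the 5 genes' UMIs, *Elane* 28.0%, *Ctsg* 16.4%, *Mpo* 11.3%, and *Ms4a3* 4.91%. In pre-neutrophil-like cells *Elane* gave 31.5% and *Ms4a3* 11.8%, while *Mpo* and *Ctsg* gave 4.29% and 2.34%. In immature neutrophil-like cells *Ms4a3* gave 48.1%.

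**Figure D2:**
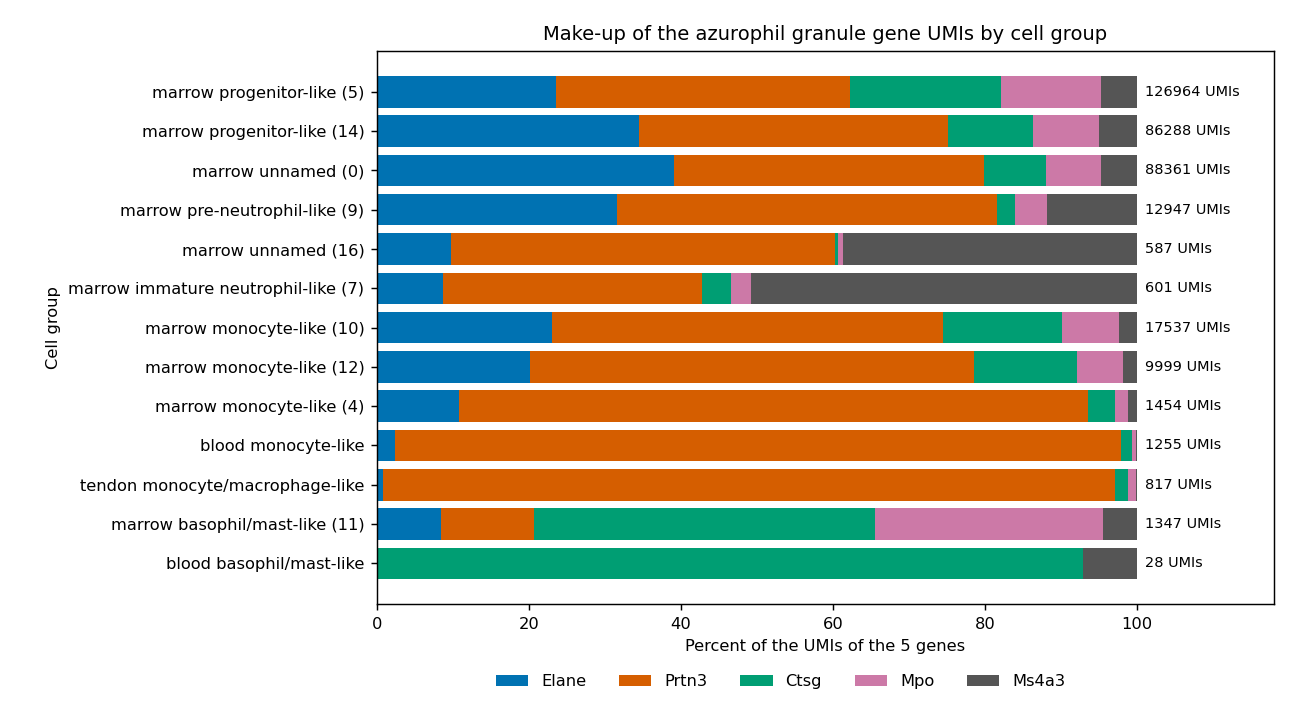
Make-up of the UMIs of the 5 azurophil granule genes in each group (percent of the 5 genes' UMIs, stacked bars that sum to 100, with the number of UMIs beside each bar). *Prtn3* takes 38.6% in progenitor-like cluster 5 and 95.5% in blood monocyte/macrophage-like cells, and *Ms4a3* takes 50.7% in immature neutrophil-like cluster 7.

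Cells of 1 cluster differed widely in their levels. In cluster 5 the quartiles of *Elane* over cells were 59.5, 3603, and 8539 CPM, so that some of these cells held little of it. In cluster 14 the quartiles were 4974, 9986, and 13624 CPM, and in cluster 0 they were 569, 5044, and 12331 CPM with a maximum of 30116 CPM. In bone marrow, 73 cells held 50% of all *Elane* UMIs, and the corresponding number was 55 cells for *Ctsg*, 68 for *Mpo*, 80 for *Ms4a3*, and 87 for *Prtn3*. In pre-neutrophil-like cells the median cell held 0 *Elane* UMIs and the upper quartile was 217 CPM, whereas *Ms4a3* had a median of 138 CPM. These values show that *Elane* in pre-neutrophil-like cells came from a minority of cells, 47.4% with a UMI (19.5% after thinning, 0 cells left out), while 87.7% held *Ms4a3* (16.2% after thinning).

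The 5 genes were high in the same cells. Over the 185 progenitor-like cells Spearman's rho between pairs of members ran from 0.73 (*Elane* and *Ctsg*) to 0.91 (*Elane* and *Prtn3*). Within cluster 5 it ran from 0.80 to 0.93, within cluster 14 from 0.83 to 0.93, and within cluster 0 from 0.92 to 0.94. These cells share a library and a cluster, and the levels also moved with depth, with rho between a member's CPM and the UMIs of the cell of 0.33 to 0.44 in cluster 5, 0.03 to 0.15 in cluster 14, and 0.53 to 0.61 in cluster 0. The part of depth in these values was not tested.

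**Figure D3:**
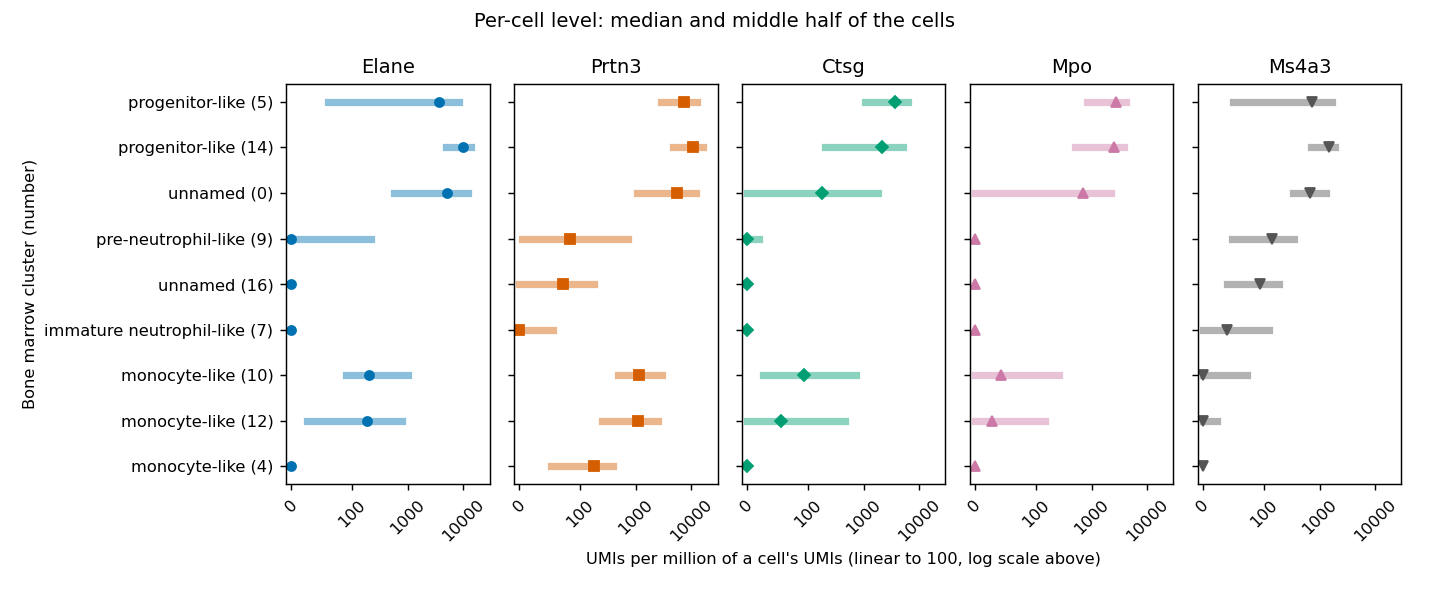
Level of each member in single cells of 9 bone marrow clusters (CPM of a cell's UMIs, axis linear to 100 and log above; points are medians over cells and bars run from the lower to the upper quartile). The median cell held 3603 CPM of *Elane* in cluster 5, 9986 in cluster 14, 5044 in cluster 0, and 0 in pre-neutrophil-like cluster 9.

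Monocyte/macrophage-like cells of bone marrow also held the transcripts, at lower levels than progenitor-like cells. The log2 ratio of progenitor-like to monocyte/macrophage-like cells was 4.25 for *Ms4a3*, 3.83 for *Mpo*, 3.46 for *Elane*, 3.26 for *Ctsg*, and 2.58 for *Prtn3*. All 5 were past 4-fold, against 5.08% of all genes, whose median was −0.08. The monocyte/macrophage-like cells were not alike. Clusters 10 and 12 (74 and 78 cells) were led by *Klf4*, a monocyte transcription factor, and held 1116 and 921 CPM of the proliferation gene *Mki67*, while cluster 4 (197 cells) was led by *Apoe* and *Clec4a3*.

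*Prtn3* was at 2621 CPM in cluster 10, 2089 in cluster 12, and 321 in cluster 4. *Elane* was at 1178, 720, and 42.0 CPM in the same clusters, and *Ctsg* at 803, 487, and 14.2 CPM. From clusters 10 and 12 to cluster 4 the log2 ratio was 2.89 (2.81 to 2.98) for *Prtn3* and between 4.44 and 5.54 for the other 4 members. All 5 were at least 4-fold higher in this comparison, as were 4.75% of all genes, while 1.88% were at least 4-fold lower. Set against clusters 10 and 12 alone, progenitor-like cells were still at least 4-fold higher for all 5 members, with log2 ratios from 2.02 for *Prtn3* to 3.61 for *Ms4a3*, where 4.98% of all genes were at least 4-fold higher and 4.36% at least 4-fold lower. *Prtn3* was thus the member with the smallest ratio in both comparisons, and it made up 82.7% of the 5 genes' UMIs in cluster 4 against 51.3% in cluster 10.

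Compared with neutrophil-like cells of bone marrow, monocyte/macrophage-like cells were more than 4-fold higher for *Elane*, *Mpo*, *Prtn3*, and *Ctsg*, with log2 ratios from 6.05 to 6.95. *Ms4a3* was higher by 1.40 (1.21 to 1.59) on the log2 scale, close to the median of all genes of 1.45. In this comparison 38.5% of all genes were at least 4-fold higher.

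The 34 basophil/mast-like cells of bone marrow, named from *Mcpt8*, *Prss34*, and *Cpa3*, had another make-up. *Ctsg* was at 550 CPM (507 to 595) and *Mpo* at 368 CPM (333 to 405), while *Prtn3* was at 149, *Elane* at 104, and *Ms4a3* at 55.5 CPM. The 114 *Elane* UMIs lay in 3 of the 34 cells. *Ctsg* gave 44.8% of the 5 genes' UMIs, against 16.4% in progenitor-like cells, and *Prtn3* gave 12.2% against 39.5%. All 5 were at least 4-fold below progenitor-like cells, as were 4.03% of all genes. The erythroid genes *Car1* and *Car2* were also among the leading genes of this cluster, as were 3 progenitor markers beside 6 basophil/mast markers. It had the highest median doublet score of the bone marrow clusters (0.0875). The part of doublets or other cells in its values was not tested. Among bone marrow cells with at least 3 basophil/mast markers, 18 cells held 1968 CPM of *Ctsg* (603 UMIs). The same 18 cells also held 404 *Mpo*, 157 *Prtn3*, 114 *Elane*, and 56 *Ms4a3* UMIs, so that they were not rich in *Ctsg* alone.

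Across the libraries the 5 genes were far lower outside bone marrow. Over all cells, *Elane* was at 2161 CPM in bone marrow, with 4.89 CPM in blood and 5.71 CPM at the injured tendon. *Mpo* was at 688, 0.411, and 1.91 CPM, and *Ctsg* at 977, 2.10, and 5.27 CPM. *Ms4a3* was at 361, 1.37, and 2.18 CPM. *Prtn3* kept the highest level outside bone marrow, at 2964, 63.5, and 21.1 CPM.

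Much of what remained in blood and the tendon lay in a few cells. A single blood cell in an NK-like cluster held 78 of the 107 *Elane* UMIs and 126 of the 1389 *Prtn3* UMIs of that library. It had 49232 UMIs, UMIs of 14 of 16 neutrophil and 8 of 8 pre-neutrophil markers, and none of the 8 NK markers. In the tendon injury site, 5 cells of an unnamed cluster (cluster 18) held 97.9% of the *Elane*, 93.9% of the *Ctsg*, 95.7% of the *Ms4a3*, 71.4% of the *Mpo*, and 46.7% of the *Prtn3* UMIs. Each of these 5 cells had UMIs of at least 7 of the 8 pre-neutrophil markers, and none of their barcodes was in the bone marrow library. That marker list holds the cell cycle genes *Mki67*, *Top2a*, *Cdk1*, *Ube2c*, *Birc5*, and *Ccnb2* beside *Fcnb* and *Chil3*. Deep cycling cells of another kind can therefore also hold most of it, and the type of these cells and of the blood cell was not tested. One of them, with 298 *Ctsg* UMIs, also had UMIs of 7 of 16 monocyte/macrophage markers, and another of 10 of 16, against 8 of 16 neutrophil markers in each. The other 3 cells had 1 or 2 of the monocyte/macrophage markers.

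Without the cells that held at least 10 UMIs of the members other than *Prtn3*, an alternative chosen after seeing the data, the tendon levels were 0.119 CPM for *Elane*, 0.547 for *Mpo*, 0.321 for *Ctsg*, and 0.0952 for *Ms4a3*. In blood they were 1.33 CPM for *Elane*, 0.367 for *Mpo*, 1.42 for *Ctsg*, and 0.550 for *Ms4a3*. *Prtn3* stood at 57.9 CPM without the 2 blood cells concerned and at 11.3 CPM without the 5 tendon cells. *Prtn3* was the only member above 2 CPM in blood or the tendon once these cells were left out. The cells were picked by the UMIs of the other members, so the fall of those members follows in part from the rule. These values therefore do not set *Prtn3* apart from them.

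In blood, *Prtn3* lay in monocyte/macrophage-like cells. The 330 such cells held 1199 *Prtn3* UMIs, at 181 CPM (171 to 192), with a UMI in 78.8% of cells and in 12.7% after thinning (0 left out, median 19343 UMIs). The other 4 members were between 0.303 and 4.39 CPM in these cells, and *Prtn3* gave 95.5% (94.2% to 96.6%) of the UMIs of the 5. In T-like cells, which should lack the gene, 1 of 720 held a *Prtn3* UMI (0.139%, and 0 of 719 after thinning, median 8878 UMIs), so that the share in monocyte/macrophage-like cells was above that background. The level differed among monocyte/macrophage-like clusters as well. Cluster 13 (37 cells) held 363 CPM of *Prtn3* in 35 of its cells and 0 UMIs of the other 4 genes. This cluster was led by *Prg4*, *C1qa*, *C1qc*, *C1qb*, and *Pf4*, of which the C1q genes are known from macrophages, and had the highest median doublet score of the blood clusters (0.0895), and the part of these in its *Prtn3* level was not tested. Cluster 7 (293 cells) held 144 CPM. In the unnamed cluster 10 (115 cells, led by *Cd300e*, *Ace*, *Ear2*, and *Treml4*, genes known from nonclassical monocytes) 1 *Prtn3* UMI was found, at 1.06 CPM.

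Blood neutrophil-like cells, those that stayed with the mononucleated cells, held little of the 5 genes. The 388 cells held 10.3 CPM of *Prtn3* (7.29 to 14.1), 2.17 CPM of *Ms4a3* from 8 UMIs, 1 UMI each of *Mpo* and *Ctsg*, and none of *Elane*. The log2 ratio of monocyte/macrophage-like to neutrophil-like blood cells was 4.14 (3.67 to 4.64) for *Prtn3*. For *Elane*, 29 UMIs against 0 gave an at least 5.396-fold higher level in monocyte/macrophage-like cells, with a floor of 3 counts over the class. The 35 basophil/mast-like blood cells held 26 *Ctsg* UMIs in 8 cells, at 110 CPM, and 52.8 CPM without 1 cell that held 14 of them, while *Elane*, *Mpo*, and *Prtn3* were at 0 in these cells.

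At the tendon injury site the pattern of blood was found again at a lower level. The 2061 monocyte/macrophage-like cells held 31.7 CPM of *Prtn3* (29.5 to 34.0), with a UMI in 21.2% of cells and in 3.38% after thinning (20 left out, median 11651 UMIs), and *Prtn3* gave 96.3% of the 5 genes' UMIs. The level was highest in cluster 0 (593 cells) at 78.0 CPM and in cluster 11 (428 cells) at 33.4 CPM, and it was between 5.14 and 13.8 CPM in the other 4 such clusters. Mesenchymal-like cells, which should lack the gene, held 2.45 CPM, with a UMI in 7.31% of cells and in 0 of 683 after thinning (median depth 34619 UMIs). Neutrophil-like cells of the tendon (565 cells) held 12.9 CPM of *Prtn3* (8.64 to 18.5) from 29 UMIs, 1 UMI of *Mpo*, and none of the other 3 genes. The log2 ratio of monocyte/macrophage-like to neutrophil-like cells was 1.30 (0.76 to 1.89) for *Prtn3*. A cluster of 47 tendon cells that held the mast cell genes *Cma1* and *Cpa3* was the only other tendon cluster with more than 10 CPM of *Ctsg*, at 41.3 CPM from 10 UMIs in 3 cells.

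**Figure D4:**
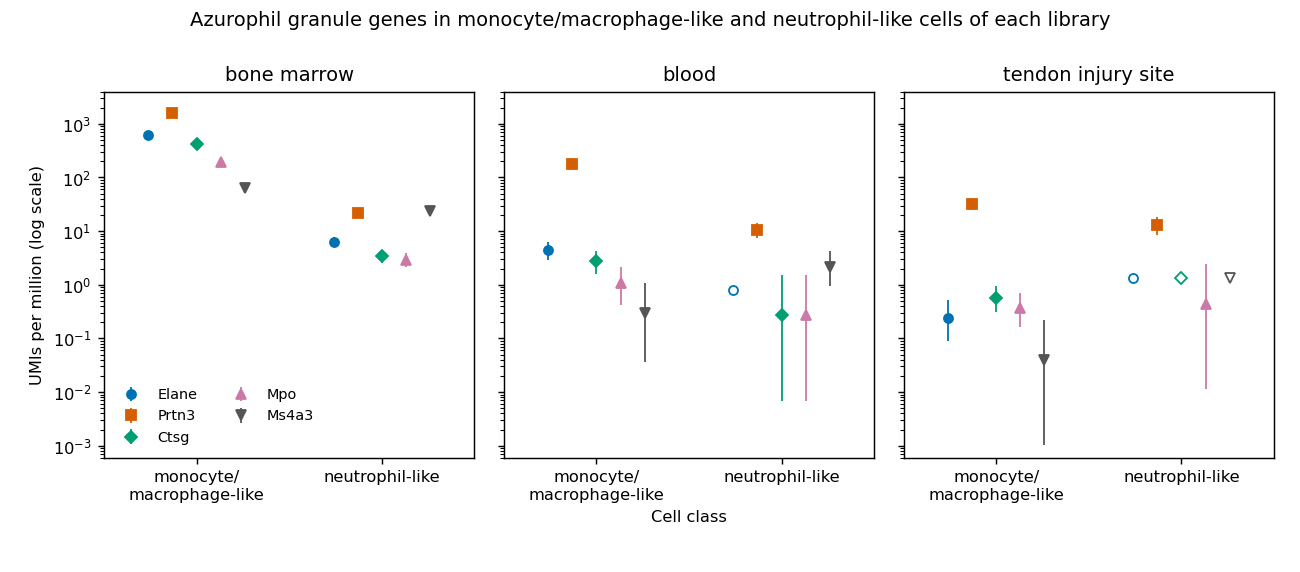
Level of each member in monocyte/macrophage-like and neutrophil-like cells of each library (CPM, log axis, filled points with exact Poisson 95% intervals, open points at the floor of 3 counts where no UMI was found, 1 library per site). *Prtn3* of monocyte/macrophage-like cells is at 1609 CPM in bone marrow, against 181 CPM in blood and 31.7 CPM at the injured tendon.

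The companions of the azurophil granule genes were read from 4 lists, with counts past 4-fold between progenitor-like and neutrophil-like cells set beside the median log2 ratio of all genes of 1.33. For these counts the background is 38.8% of genes at least 4-fold higher and 6.42% at least 4-fold lower. Of 16 tested genes for the processing and packaging of granule proteins, 11 were at least 4-fold higher in progenitor-like cells, 1 was lower, and the median log2 ratio was 2.74. *Pdia4* (6.18), *Pdia6* (4.44), *Calr* (4.14), and *Hsp90b1* (3.27), which encode chaperones of the endoplasmic reticulum, had the highest ratios. *Lyst*, a regulator of lysosome and granule size, was lower at −2.24, and *Vps13b* was at −0.43.

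Lysosomal and granule content genes did not share that pattern. Of 14 tested, 4 were at least 4-fold higher and 1 was lower, with a median of 0.68, below that of all genes. *Prss57*, a further serine protease of azurophil granules, was at 240 against 7.57 CPM (4.99), and the lysosomal enzymes *Gaa*, *Ctsz*, and *Gusb* were at 3.99, 2.99, and 2.23. *Lyz2*, which encodes lysozyme, went the other way, at 1362 CPM in progenitor-like and 11569 CPM in neutrophil-like cells (−3.09), and *Ctsd* was at −1.26.

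Among protease inhibitors, 2 of 9 tested genes were at least 4-fold higher and 2 lower, with a median of 0.42. *Cst7*, an inhibitor of cysteine proteases such as cathepsin C, which activates the granule serine proteases, was at 167 against 0.531 CPM (8.30). *Serpina3g* was at 10.1 CPM against 0, at least 50.6-fold higher with a floor of 3 counts over the class. *Cst3* and *Cstb* were at 1.11 and 0.59, and *Slpi* (−2.35) and *Stfa1* (−4.89) were higher in neutrophil-like cells. *Serpinb1a*, which encodes an inhibitor of all 3 granule proteases and was picked after its values were seen, was at 1065 against 798 CPM.

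Of 14 tested genes on the list of transcription factors, 8 were at least 4-fold higher in progenitor-like cells and none was lower, with a median of 3.17. Whether each listed gene acts on granule genes was not tested. *Irf8* was at 185 against 0.465 CPM (8.64), *Myc* at 8.50, *Klf4* at 7.34, and *Per3* at 4.79. *Cebpe*, needed for the later specific granules, and *Spi1*, which encodes PU.1, were at −0.15 and −0.61.

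**Figure D5:**
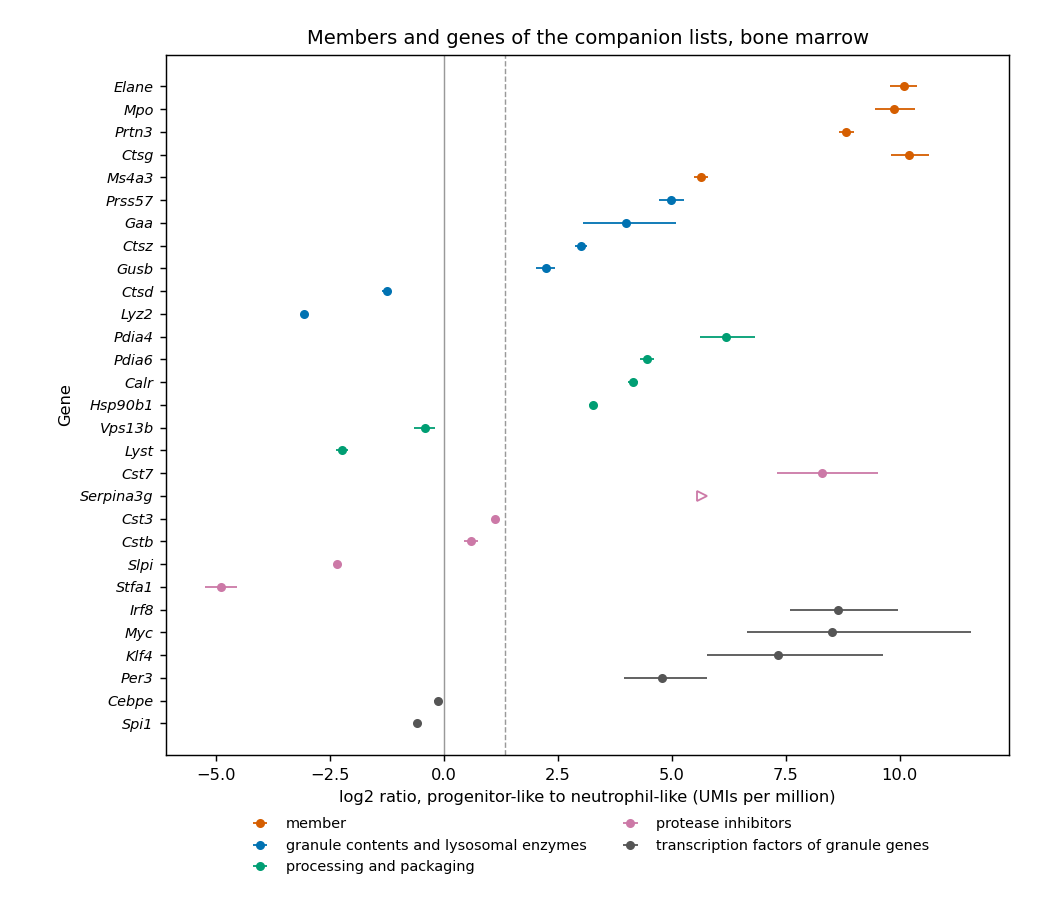
log2 ratio of bone marrow progenitor-like to neutrophil-like cells for the 5 members and the named genes of the 4 companion lists (points with intervals of the binomial split of UMIs, a solid line at 0 and a dashed line at the median of all genes, 1.33). The members lie between 5.64 and 10.21, the other genes between −4.89 and 8.64, and *Serpina3g* is drawn as an open triangle at its lower bound.

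Against monocyte/macrophage-like cells the lists gave other counts, beside a background of 5.08% higher and 6.36% lower. Of the content genes 2 were at least 4-fold higher and 2 lower, of the processing genes 1 and 1, of the inhibitors 4 and 1, and of the transcription factors 5 and 1. *Prss57* was higher in progenitor-like cells (4.51), *Lyz2* was lower (−3.54), and *Klf4* was lower, at 32.2 against 257 CPM. Picked after their values were seen, *Cd63* (6.63) and *Srgn* (2.82), which encodes the granule proteoglycan that binds the proteases, were higher, and *Ctsc*, which encodes the enzyme that activates them, was lower at 79.2 against 751 CPM (−3.25). *Gfi1*, a repressor of monocyte genes that was likewise picked after its values were seen, was at 38.9 CPM in progenitor-like cells and 0 in monocyte/macrophage-like cells, at least 129-fold higher with the same floor.

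The genes whose levels were most like those of the 5 members were sought over 31 groups of cells in the 3 libraries, by the mean Pearson r of log2(CPM + 10) among 12465 genes. These groups share libraries, so r is a description. The members themselves had an r of 0.81 to 0.96 with each other. The 10 most alike genes were *Kcnk12* (0.89), a potassium channel gene, *Prss57* (0.87), *Pnp2* (0.86), *Fbp1* (0.82), *1700020L24Rik* (0.82), *Plppr3* (0.81), *Oip5* (0.79), *Hsd17b1* (0.79), *Gpr160* (0.77), and *Impa2* (0.77). *Kcnk12* was at 36.3 CPM in progenitor-like, 11.8 in monocyte/macrophage-like, 5.86 in pre-neutrophil-like, and 0.0664 CPM in neutrophil-like cells. *Fbp1* was at 14.6 CPM in progenitor-like and had 1 UMI in monocyte/macrophage-like cells, and *1700020L24Rik* was higher in pre-neutrophil-like (151 CPM) than in progenitor-like cells (98.9 CPM). The list depended on the measure, with 3 of the 10 shared when Spearman's rho was used and 1 when bone marrow alone was used.

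Neighbors of the members on the chromosome varied. *Plppr3*, which overlaps *Prtn3* in the annotation so that their reads may not be fully separable, was at 48.1 CPM in progenitor-like and 0.199 CPM in neutrophil-like cells. *Ptbp1*, on the same side, was at 84.4 and 9.63 CPM, *Med16* at 18.1 and 9.09 CPM, and *R3hdm4* at 55.4 and 303 CPM. *Cfd*, next to *Elane* on the other side, had 8 UMIs in the bone marrow library. Next to *Mpo*, the peroxidase genes *Lpo* and *Epx* had 2 and 1 UMIs, and *Tspoap1* was at 16.4 and 2.79 CPM. Also near *Mpo*, *Supt4a* was at 161 and 126 CPM, *Mks1* at 3.78 and 0 CPM, and *Rnf43* at 1.38 and 0.0664 CPM. *Mcpt8*, near *Ctsg*, was at 2038 CPM in basophil/mast-like against 24.6 CPM in progenitor-like cells. Near *Ms4a3*, *Ms4a2* was at 385 CPM in basophil/mast-like cells and *Ms4a6d* at 158 CPM in monocyte/macrophage-like cells. *Oosp1*, on the other side of *Ms4a3*, was at 7.11 CPM in progenitor-like and 0.0664 CPM in neutrophil-like cells.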

How the data were processed

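For each library the authors deposited a matrix of raw UMI counts, with genes in lines and cells in columns. The file headers name Cell Ranger 5.0.1, and the submitters' processing notes name mm10, the same assembly as GRCm38. Here a cell was kept with 200 or more detected genes and no more than 20% mitochondrial UMIs. The highest Scrublet scores were dropped at 0.8% per 1000 cells, which took out 27 bone marrow, 38 blood, and 198 tendon cells, because the automatic threshold marked 0 tendon cells. Each library was clustered with scanpy 1.11.5 (2000 variable genes, 30 principal components, 15 neighbors, Leiden resolution 1), with 64 genes, the members and companions, left out of the variable genes. A cluster was named when at least 3 markers of a type, and 2 more than of any other, were among its 100 leading genes by fold. This naming rule was chosen with the clusters in view.

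CPM are sums of UMIs over a group divided by all UMIs of the group. The interval of a ratio is that of the exact binomial split of its UMIs, a ratio against 0 uses a floor of 3 counts, and genes with at least 20 UMIs in both classes together were read for 4-fold differences. Counts of 10432 genes were simulated for the whole progenitor-like and neutrophil-like classes, with counting error alone and no spread between cells. In them the intervals held the true ratio for 96.0% of 199 changed genes and 95.9% of unchanged genes. The intervals are built on that same error, so this coverage followed from the design. It is no check on spread between cells or mice, which was not tested. The members, the companion lists, and the named genes were chosen with earlier results of these data known. The genes named are the members, the 4 highest and the 2 lowest genes of each companion list by the progenitor-like to neutrophil-like ratio, the 10 most alike genes, and chromosomal neighbors with at least 20 UMIs, and others are marked where they are named. Of the chromosomal neighbors named, *Cfd*, *Lpo*, and *Epx* have fewer UMIs and were named after their values were seen. Python 3.11.15, numpy 2.4.6, scipy 1.17.1, pandas 2.3.3, R 4.3.3, and Seurat 5.3.0 were used. The alternatives changed the filter, doublets, clustering, integration, naming, scaling, thinning, and the measure of likeness.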

Additional observations from a re-analysis of the deposited data

Results flagged for a closer look

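*Ms4a3* differed in direction between sites when monocyte/macrophage-like cells were set against neutrophil-like cells. Its log2 ratio of monocyte/macrophage-like to neutrophil-like cells was −2.84 (−6.11 to −0.52) in blood and 1.40 (1.21 to 1.59) in bone marrow. The blood value rests on 2 and 8 UMIs, and the difference between the libraries was not tested. All 8 *Ms4a3* UMIs of blood neutrophil-like cells lay in the immature cluster 0 (51 cells). The mature cluster 1 (337 cells) held 0.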

How the results depend on the processing

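With 1 library per site, counting error is the only error measured, and depth limits what can be said of levels under about 3 UMIs in a class. No paired analysis was possible because there is 1 sample per site and no test. Setting by setting, the summed level of the 5 genes in progenitor-like cells (24442 CPM), its log2 ratio to neutrophil-like (8.72) and to monocyte/macrophage-like cells (3.07), and the share of the bone marrow UMIs of the 5 genes (61.6%) became 23434 CPM, 9.03, and 3.83 with cells weighted equally. With the genes above 1% of UMIs out of the denominator, the level was 28098 CPM and the neutrophil ratio 7.69. With no filter on cells, the level was 23853 CPM, the monocyte ratio 3.16, and the share 59.5%. All 4 values were 29948 CPM, 9.21, 3.37, and 54.6% with the stricter filter, and 24324 CPM, 8.85, 3.09, and 61.9% with doublets kept. They were 22759 CPM, 8.62, 2.97, and 36.7% at resolution 0.5, 22808 CPM, 8.62, 2.94, and 54.7% at resolution 2, and 26638 CPM, 8.87, 3.20, and 53.9% with the members and companions kept among the variable genes. Naming cell by cell gave the largest differences, 5104 CPM, 6.23, 4.36, and 1.51%, and it reversed the ratio of progenitor-like to pre-neutrophil-like cells, to −1.42 for the sum, −2.74 for *Elane*, −1.61 for *Prtn3*, −0.69 for *Ctsg*, and −1.79 for *Ms4a3*. Both summed log2 ratios stayed above 0 in 9 of 9 alternatives that gave a value. The share of progenitor-like cells with a UMI of any member was 91.4% at 1000 UMIs and 85.4% at 500. The list of 10 alike genes shared 3 genes under Spearman's rho and 1 with bone marrow alone. No progenitor-like class was named when the libraries were clustered together, with or without integration. Without integration, 67 of the 185 cells went to pre-neutrophil-like and 57 to neutrophil-like clusters, and with Seurat anchors 141 went to a cluster named T-like. The cause of these differences was not tested.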

Other observations

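In cluster 16 of bone marrow, 47 unnamed cells led by the mitotic genes *Cenpf* and *Cdc20*, *Prtn3* was at 180 CPM and *Ms4a3* at 137 CPM. *Elane* was at 34.5 CPM, *Mpo* at 2.42 CPM, and *Ctsg* at 1.21 CPM in the same cells, so that *Prtn3* gave 50.6% and *Ms4a3* 38.7% of the UMIs of the 5 genes.

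Mesenchymal-like cells of the tendon held 31 *Mpo* UMIs, at 1.21 CPM, while monocyte/macrophage-like cells of that library held 0.363 CPM and neutrophil-like cells 1 UMI. The 8 tendon cells with at least 3 basophil/mast markers and a UMI of a mast cell protease (*Cma1*, *Mcpt4*, or *Tpsb2*) held all 10 *Ctsg* UMIs of the 13 cells with at least 3 such markers, and none of the other 4 members.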
